A study of Mus musculus with 56 samples.

Results

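Peaks of open chromatin that were accessible mainly in granulocyte-monocyte progenitor (GMP) clones grown in stem cell factor (SCF), and little in clones grown in GM-CSF, are described here. Raw ATAC-seq counts of the 24 SCF control libraries and of the 4 GM-CSF control libraries were pooled, and each pool was scaled to 1000000 counts (CPM). A peak was taken when it lay on an autosome, held at least 10 CPM in the SCF pool and held at least 4 times the CPM of the GM-CSF pool. The rule gave 1372 peaks, 8.36% of the 16408 autosomal peaks with at least 10 CPM in the SCF pool and a small part of the 297361 peaks of the table. Because the control libraries chose these SCF-open peaks, their difference between SCF and GM-CSF control lines is a description and was not tested.

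The cells were clones of mouse bone marrow progenitors, each begun from 1 sorted cell and held undifferentiated by a retroviral Hoxb8 fused to the estrogen receptor domain in 0.5 uM beta-estradiol, so every group carries this transgene. The design text names a single adult Tet2 fl/fl mouse as the origin of all 28 clones, and each clone gave a pair of sister lines, Tet2 KO after an integrase-defective lentivirus for Cre and control after one for GFP. Of the clones, 24 grew in SCF at about 100 ng/ml and 4 (clones 19 to 22) in GM-CSF at 10 ng/ml, which gave 24 SCF Tet2 KO, 4 GM-CSF Tet2 KO, 24 SCF control and 4 GM-CSF control libraries of 1000 cells each. The titles of clones 20, 21 and 22 name SCF whereas their treatment field and the design text give GM-CSF, and they were placed with GM-CSF. With 1 mouse, no p-value measures the spread between animals. In the comparison of SCF with GM-CSF, p-values rest on the spread between clones. In that of Tet2 KO with control and in that among clones, they rest on the spread within pairs of sister lines.

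ATAC-seq marks DNA that a transposase can reach, which is mostly promoters and enhancers. Enhancers of blood cells are bound by combinations of factors such as GATA2, RUNX1, TAL1 with E proteins, MYB and PU.1, and many enhancers of stem and early progenitor genes close as progenitors mature. SCF acts through the receptor KIT on early progenitors, whereas GM-CSF drives monocytic and granulocytic differentiation.

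Total counts per library ran from 130049 to 1079233 in SCF Tet2 KO lines, 39379 to 468878 in GM-CSF Tet2 KO lines, 102302 to 1042973 in SCF controls and 88234 to 766838 in GM-CSF controls. A single count was worth 24.5 and 25.4 CPM in the Tet2 KO lines of clones 19 and 20, so these libraries carry little information on a single peak. Summed by gene, no difference beyond sampling noise was found between these 2 libraries (p = 0.126 in a chi-square test of 2203 genes). Every other pair of GM-CSF Tet2 KO lines and the control lines of the same clones differed, but over more genes. Chi-square per degree of freedom was 1.03 for this pair. It was 1.05 for those control lines (7462 genes) and 1.07 for the Tet2 KO lines of clones 21 and 22 (14871 genes). At this depth the test cannot tell whether the pair is more alike than others. A test with both counted as 1 sample is given below. Among defining markers, the promoter of Mpo, the myeloperoxidase of primary granules, held 36.3 CPM in the pooled SCF Tet2 KO lines, 3.04 in the GM-CSF Tet2 KO lines, 35.5 in SCF controls and 3.96 in GM-CSF controls. That of Gfi1, a repressor needed for granulopoiesis, was open in all 4 pools (43.9, 86.1, 41.2 and 70.7 CPM in the same order). Promoters of Elane, Prtn3, Ms4a3 and Cebpe ran opposite to Mpo. They held 4.89, 5.78, 13.7 and 15.6 CPM in the SCF Tet2 KO pool and 8.11, 9.12, 32.4 and 25.3 CPM in the GM-CSF Tet2 KO pool. Ctsg held 27.6 and 23.3 CPM in these pools. Promoters of the lymphoid marker list summed to 0 to 23.8 CPM per library in SCF Tet2 KO lines, 0 to 22.8 in GM-CSF Tet2 KO lines, 5.35 to 28.9 in SCF controls and 9.13 to 26.1 in GM-CSF controls, and those of the erythroid list to 6.42 to 32.9, 0 to 25.4, 4.82 to 29.3 and 6.52 to 22.7 CPM in the same order. The megakaryocyte list summed to 9.14 to 69.2, 0 to 48.9, 7.85 to 43.4 and 11.3 to 26.1 CPM in that order. The macrophage list summed to 4.45 to 33.4, 0 to 48.9, 3.39 to 48.9 and 11.3 to 26.1 CPM. Accessibility of Tet2 does not report its deletion, which was not checked here.

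The sequences of 8 SCF-open peaks are shown, 201 bases each from the plus strand of GRCm38 (mm10, RefSeq sequence). They were picked from the named peaks to show the motifs treated below and are not a typical sample. Over all SCF-open peaks the GATA motif is in 12.2%. The Lrrc38 window, unlike the others, is not centred in its peak. Capitals mark the letters of a GATA motif (AGATAAG), a RUNX motif (TGTGGTT) and an E-box (CAGCTG), searched on both strands, so that CTTATCT and AACCACA are the same motifs read on the minus strand. The first 4 hold a GATA motif, the next 2 a RUNX motif without one, and the last 2, beside the stem cell genes Gata2 and Sox4, none of the 3 motifs.
The Cd34 window at chr1:194928015-194928215 lies upstream of the gene, the Cbfa2t3 window at chr8:122700777-122700977 upstream of that gene and in an intron of the overlapping gene model Gm20388, the Neu4 peak at chr1:94035333-94035533 and the Dad1 peak at chr14:54227540-54227740 between genes, the Slc7a10 peak at chr7:35156586-35156786 between genes, the Lrrc38 peak at chr4:143361945-143362145 in an intron, the Gata2 peak at chr6:88117011-88117211 between Rpn1 and Gata2, and the Sox4 peak at chr13:28953658-28953858 at the promoter.
Cd34 upstream: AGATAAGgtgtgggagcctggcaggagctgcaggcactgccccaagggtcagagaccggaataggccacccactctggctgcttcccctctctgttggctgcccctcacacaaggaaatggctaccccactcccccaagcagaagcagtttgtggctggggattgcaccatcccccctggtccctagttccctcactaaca
Cbfa2t3 upstream: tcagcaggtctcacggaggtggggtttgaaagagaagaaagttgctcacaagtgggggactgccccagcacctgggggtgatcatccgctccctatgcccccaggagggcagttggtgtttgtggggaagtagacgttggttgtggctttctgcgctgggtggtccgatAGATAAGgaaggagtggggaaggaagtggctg
Neu4 downstream: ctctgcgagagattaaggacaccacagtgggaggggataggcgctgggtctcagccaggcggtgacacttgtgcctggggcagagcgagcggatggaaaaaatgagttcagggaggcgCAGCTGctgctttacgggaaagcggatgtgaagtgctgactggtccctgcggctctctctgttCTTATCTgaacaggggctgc
Dad1 downstream: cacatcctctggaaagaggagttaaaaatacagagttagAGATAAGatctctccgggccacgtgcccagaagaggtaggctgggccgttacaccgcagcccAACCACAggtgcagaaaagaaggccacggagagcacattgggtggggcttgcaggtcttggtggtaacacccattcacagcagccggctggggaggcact
Slc7a10 upstream: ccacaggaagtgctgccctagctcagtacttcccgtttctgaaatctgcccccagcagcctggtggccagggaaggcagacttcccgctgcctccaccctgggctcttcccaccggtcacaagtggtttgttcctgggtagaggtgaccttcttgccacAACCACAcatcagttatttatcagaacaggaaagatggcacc
Lrrc38 intron: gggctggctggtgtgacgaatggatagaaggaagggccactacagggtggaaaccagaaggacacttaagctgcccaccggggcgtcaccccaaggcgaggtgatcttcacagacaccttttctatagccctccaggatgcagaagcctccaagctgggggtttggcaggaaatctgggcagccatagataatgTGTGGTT
Gata2 far upstream: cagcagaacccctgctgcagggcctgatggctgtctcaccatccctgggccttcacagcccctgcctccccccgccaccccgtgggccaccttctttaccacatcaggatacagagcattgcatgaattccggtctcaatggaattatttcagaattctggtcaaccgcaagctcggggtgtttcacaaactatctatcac
Sox4 promoter: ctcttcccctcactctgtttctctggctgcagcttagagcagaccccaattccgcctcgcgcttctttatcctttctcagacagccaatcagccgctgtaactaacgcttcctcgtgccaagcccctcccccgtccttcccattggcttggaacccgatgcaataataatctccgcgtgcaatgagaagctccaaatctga

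SCF-open peaks lay mostly away from promoters. A promoter was taken as the stretch within 1 kb of the start site (TSS) of a protein-coding transcript. Only 215 of the 1372 SCF-open peaks (15.7%) were at a promoter, against 58.7% of the 16408 autosomal peaks at or above 10 CPM. Introns held 571 (41.6%, against 19.7%) and intergenic DNA 459 (33.5%, against 15.1%), and 73 (5.32%, against 3.8%) were at the promoter of another gene type such as a long noncoding RNA. The remaining 26 lay in coding exons and 28 in other exons. The median distance to the nearest protein-coding TSS was 21000 bp, against 245 bp for the 16408 peaks, and the median number of CpG sites in the 301 bp of a peak was 5, against 19. Outside promoters the CpG content was much alike, with a median of 5 in SCF-open peaks and 6 in all open peaks. The set that the same rule gives when the cytokines are exchanged, 1152 peaks open mainly in GM-CSF clones, was also poor in promoters (8.07%).

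The GATA, RUNX and E-box motifs were more frequent in SCF-open peaks. Outside promoters, the GATA motif AGATAAG was in 162 of 1157 SCF-open peaks (14%), against 5.4% of the 6773 open peaks outside promoters and 1.98% of the 1059 peaks open mainly in GM-CSF clones. The RUNX motif TGTGGTT was in 27.1%, against 18.4% and 11.2%, and the E-box CAGCTG, which TAL1 binds with E proteins, in 34.6%, against 26.9% and 21.2%. Over all 292001 autosomal peaks the 3 motifs were in 3.93%, 10.5% and 22.4%. A GATA or a RUNX motif was in 37.3% of SCF-open peaks outside promoters, against 22.6% of all open peaks there and 12.7% of those open mainly in GM-CSF clones.

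Other motifs differed less or ran the other way. The PU.1 motif GAGGAAGT was in 12.4% of both SCF-open peaks and all open peaks outside promoters, and the MYB motif TAACNG in 32.9%, against 27.6%. The AP-1 motif TGANTCA was in 12.9%, against 15.7% of open peaks and 21.2% of peaks open mainly in GM-CSF clones, and the STAT motif TTCNNNGAA in 7.35%, against 7.94% and 12.8%. The CTCF motif was in 0.605%, against 4.12% and 0.567%. The HLF and NFIL3 motif TTANGTAA was in 2.07%, against 2.36% and 3.97%. The MEIS motif CTGTCA was in 28.9%, against 24.9% and 26.2%, the SOX motif ACAATGG in 3.72%, against 3.01% and 2.93%, and the joint motif of HOX with PBX in 3.8%, against 2.76% and 2.46%. These shares describe letters in windows of equal length and were not tested.

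**Figure D1:**
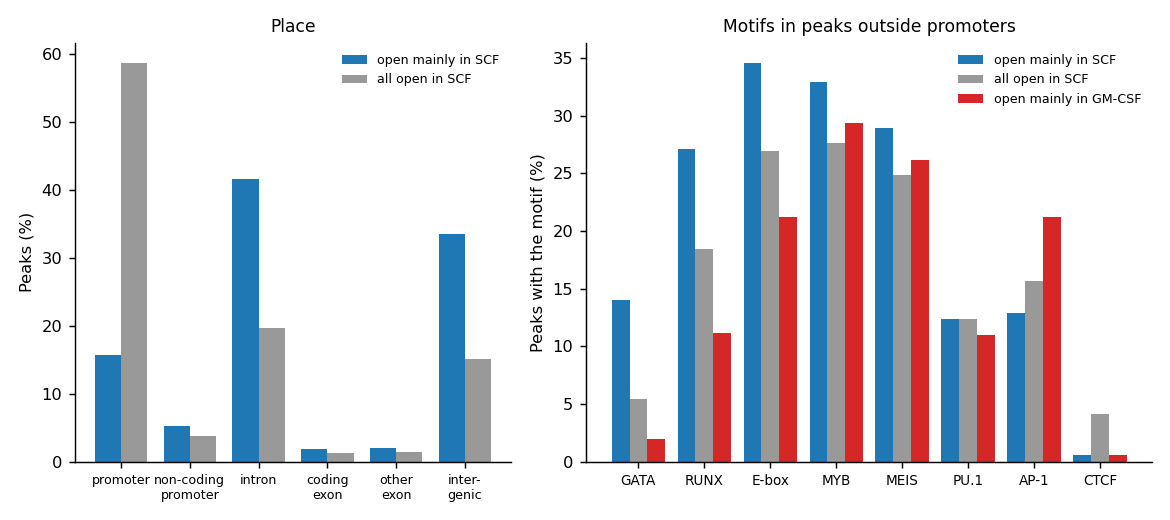
Left, percent of peaks by place for the 1372 SCF-open peaks (blue) and for all 16408 autosomal peaks at or above 10 CPM in the SCF control pool (grey). Right, percent of peaks outside promoters that hold each motif, for SCF-open peaks (blue), all open peaks (grey) and peaks open mainly in GM-CSF clones (red): the GATA motif is in 14%, 5.4% and 1.98%.

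Most SCF-open peaks were not strong peaks. The pooled SCF control CPM had a median of 15.9 and a highest value of 83.1, and 934 peaks were below 20 CPM. In the pooled GM-CSF controls the peaks had 0 to 31 counts (median 3), and 738 were at or below 3 counts, the limit taken as a floor, which equals 1.98 CPM. A peak had a count in a median of 23 of the 24 SCF control lines (fewest 13), and 519 had one in all 24. Among peaks of at least 20 CPM, those just inside the 4-fold limit lay nearest to Ssr3 and Slc41a2 (both 4.002-fold) and Plek (4.009-fold). The nearest excluded peaks were at the promoters of Mapt (3.996-fold) and Iqgap2 (3.978-fold) and upstream of Mppe1 (3.971-fold), so the limit divides a continuous range.

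The 12 strongest SCF-open peaks lay beside genes of varied function. The promoter of Pbx4, which encodes a homeodomain partner of Hox proteins, was the highest. It held 42.3, 116 and 170 CPM (lowest, median and highest) in the 24 SCF Tet2 KO lines, against 0, 1, 9 and 10 counts in the GM-CSF Tet2 KO lines of clones 19 to 22. In control lines it held 54.8, 79.8 and 113 CPM in SCF, against 4, 2, 8 and 17 counts in GM-CSF (20.5 CPM pooled). Every SCF line was thus well open here, and the GM-CSF lines kept a low signal.

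The second strongest peak, at chr14:54227490-54227790, lay 3.28 kb beyond the end of Trac, the constant region of the T cell receptor alpha gene, and 26.3 kb from the TSS of Dad1, a subunit of oligosaccharyltransferase. The enhancer of the T cell receptor alpha gene is known to lie between Trac and Dad1. The peak held 46.1, 82.7 and 140 CPM in SCF Tet2 KO lines, against 2, 0, 11 and 14 counts in GM-CSF Tet2 KO lines. It held 31.5, 80.2 and 137 CPM in SCF controls, against 6, 1, 10 and 11 counts in GM-CSF controls. Clone 19, with 48.9 CPM in its Tet2 KO line and 52.2 CPM in its control line, lay within the SCF range in both genotypes. Its window holds both a GATA and a RUNX motif, in capitals above.

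The peak 1.77 kb upstream of Cbfa2t3, a corepressor that works with TAL1 and GATA factors, held 43.9, 66.2 and 103 CPM in SCF Tet2 KO lines, against 0, 2, 5 and 4 counts in GM-CSF Tet2 KO lines. In controls it held 38.6, 64.0 and 95.3 CPM in SCF, against 0, 1, 5 and 3 counts in GM-CSF. The groups did not overlap in controls, whereas in Tet2 KO lines the 2 counts of GM-CSF clone 20 (50.8 CPM) lay within the SCF range. The 3 other open peaks of this gene were SCF-open too. Other peaks among the strongest were at the promoters of Rfx3, a factor of ciliated cells, and Garem1, an adaptor in ERK signalling, in an intron of Egln3, a prolyl hydroxylase of the hypoxia response, and 27.8 kb from Cd180, 144 kb from Haao, 29.7 kb from Slc7a10, 14.9 kb from Neu4 and 28.5 kb from Ap1m1. Their fold between the SCF and GM-CSF control pools ran from 4.06 at Pbx4 to 11.4 at Cbfa2t3.

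A set of 74 SCF-open peaks had no count in any GM-CSF control, and 10 had none in any of the 8 GM-CSF libraries. The strongest of these 10 was in an intron of Lrrc38, an auxiliary subunit of a potassium channel. It held 4.57, 33.6 and 88.7 CPM in SCF Tet2 KO lines and 11.1, 26.1 and 54.4 CPM in SCF controls, with 0 counts in every GM-CSF line. Against the floor of 3 counts per pool, it was at least 11.5-fold higher in SCF than GM-CSF Tet2 KO lines and at least 13.6-fold higher in SCF than GM-CSF controls. A peak 349 kb upstream of Tbx3, a T-box factor, was at least 14.5-fold higher in SCF controls and had 1 count in all GM-CSF Tet2 KO lines together. The promoters of Nrgn and Celsr1, an intron of Kank1 and a peak near Cryba4 followed, at least 11.6-fold to 13.1-fold higher.

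Together, SCF-open peaks took 1.39% to 3.45% of a library's counts in SCF Tet2 KO lines (median 2.62%), against 0.922%, 0.780%, 0.446% and 0.445% in the GM-CSF Tet2 KO lines of clones 19 to 22. In SCF controls they took 1.52% to 3.41% (median 2.61%), against 0.468%, 0.460%, 0.356% and 0.337% in GM-CSF controls. In bulk libraries, fewer cells with an open site and less opening per cell cannot be told apart. No SCF library was as low as any GM-CSF library, which in control lines the rule favours. When the rule was run again without a GM-CSF clone, the share of that clone was 0.932%, 0.767%, 0.545% and 0.580% in the Tet2 KO lines of clones 19 to 22 and 0.615%, 0.566%, 0.579% and 0.601% in the control lines. The low control values above are therefore in part set by the choice of peaks, and the left-out clones still lay below the lowest SCF library (1.39% to 1.66% over these runs). Outside promoters, measured against counts outside promoters, the peaks took 1.58% to 5.63% of counts in SCF Tet2 KO lines, against 0.617% to 1.12% in GM-CSF Tet2 KO lines.

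**Figure D2:**
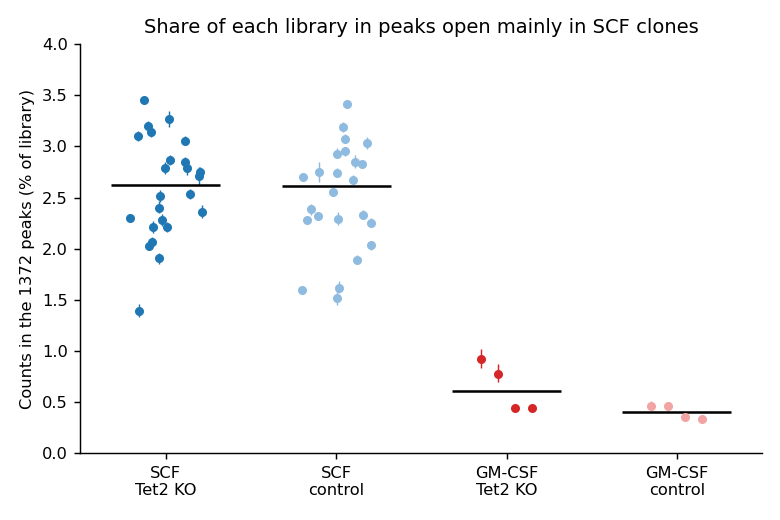
Percent of each library's counts that fell in the 1372 SCF-open peaks. Points are libraries with 95% Wilson intervals, which cover counting error only, and bars are group medians; SCF Tet2 KO lines lie between 1.39% and 3.45% and GM-CSF Tet2 KO lines between 0.445% and 0.922%.

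The Tet2 KO lines had no part in choosing the peaks, and SCF was compared with GM-CSF in them with edgeR's quasi-likelihood test over 24923 peaks. They are sister lines of the same clones, so the same 4 GM-CSF clones carry both genotypes. Of 1370 SCF-open peaks tested, 784 (57.2%) were more accessible in SCF at an adjusted p of 0.01 or less, against 5.83% of all tested peaks, and DESeq2 called 276 (20.1%). None was less accessible, against 3.40% of all tested peaks (0 also by DESeq2 and 0 at an unadjusted p under 0.05). Among the other autosomal peaks at or above 10 CPM, 505 of 15036 (3.36%) were more accessible in SCF. The median log2 difference (SCF minus GM-CSF) was 2.36 over SCF-open peaks, or 2.25 with the 121 peaks that had no GM-CSF Tet2 KO count set at their bound, against 0.15 over all tested peaks. The share called was 55.9% outside promoters, against 5.34% of other open peaks there, and 64.2% at promoters.

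In the pooled Tet2 KO lines, 1369 of 1372 SCF-open peaks were higher in SCF, and 1001 (73%) were at least 4-fold higher, against 3.33% of the other open peaks. Applied to the Tet2 KO lines, the rule gave 1485 peaks, of which 920 were shared, 67.1% of the peaks chosen on control lines and 62% of those chosen on Tet2 KO lines. The strength of the test rests on clones 21 and 22, the deeper GM-CSF libraries. Without the Tet2 KO line of clone 21 the count was 213, without that of clone 22 it was 246, and with clones 19 and 20 summed as 1 sample it was 726. Of 57 named peaks that passed and were refitted, 28 no longer did without clone 21 and 26 without clone 22, among them both Kit peaks at the TSS, the Sox4 peak 114 kb away, the Gata2 peak 4.07 kb upstream, the Gfi1b promoter and the Cd34 intron without either, and the Dad1, Garem1 and Flt3 peaks without clone 21 alone.

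The 12 strongest peaks all passed in Tet2 KO lines, with log2 differences from 1.47 ± 0.27 (SE, adjusted p = 6.11e-06) at the Dad1 peak to 3.72 ± 0.42 (adjusted p = 9.39e-14) at the peak 144 kb from Haao, an enzyme of the kynurenine pathway. The Pbx4 promoter was 2.26 ± 0.29 higher (adjusted p = 4.6e-11). Among the SCF-open peaks with the most GM-CSF Tet2 KO signal, the promoters of Eef2k, the kinase of elongation factor 2, and Calr, the chaperone calreticulin, did not pass. The Eef2k promoter had 0, 3, 8 and 6 counts in GM-CSF Tet2 KO lines and a difference of 1.07 ± 0.34 (adjusted p = 0.0159). The Calr promoter had 0, 0, 9 and 11 counts and a difference of 0.83 ± 0.32 (adjusted p = 0.0589).

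**Figure D3:**
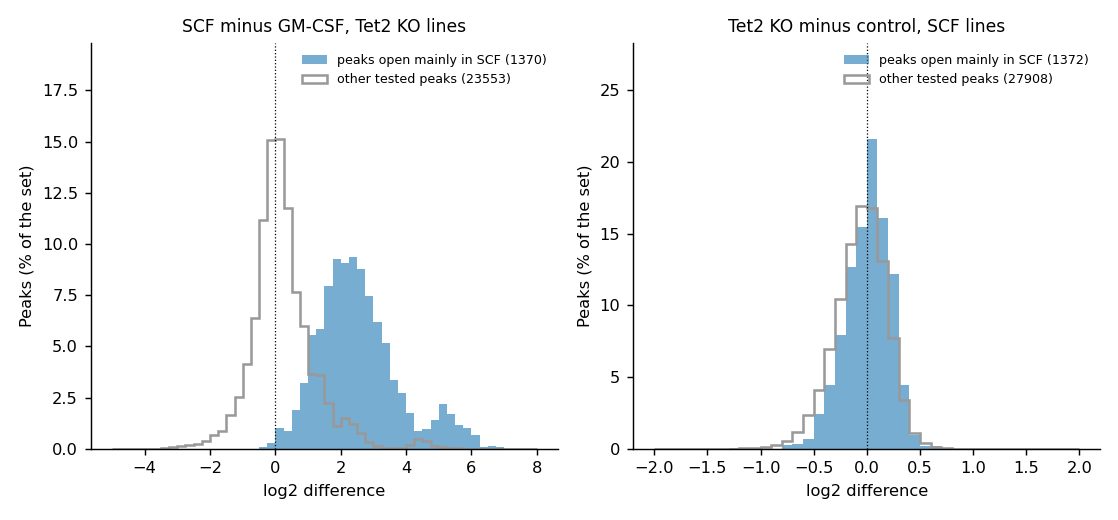
Distribution of log2 differences, in percent of each set, for SCF-open peaks (blue) and all other tested peaks (grey outline). Left, SCF minus GM-CSF in Tet2 KO lines, where the median of SCF-open peaks is 2.36 and the small group above 4 is mostly peaks with few or no GM-CSF counts; right, Tet2 KO minus control in SCF lines, where it is 0.02.

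Among the gene lists examined, that of stem and early progenitor cells held the most SCF-open peaks in number, as it also held the most open peaks. A peak was assigned to the protein-coding gene with the nearest TSS. Of 92 open peaks nearest to 30 such genes, 33 (35.9%) were SCF-open, against 8.36% of all open peaks. That background mixes 2 kinds of place. SCF-open peaks were 215 of 9635 open peaks at promoters and 1157 of 6773 outside promoters. The lists were not split by place, so the part of place in these shares was not tested. They belonged to Angpt1, Cd34, Erg, Etv6, Flt3, Gata2, Gfi1b, Hhex, Hlf, Ikzf2, Kit, Meis1, Runx1, Sox4, Tal1 and Zfpm1. In Tet2 KO lines 25 of the 33 were more accessible in SCF, against 784 of 1370 (57.2%) over all SCF-open peaks. Their median log2 difference was 2.77 (2.65 with 3 peaks without GM-CSF counts at their bound), against 2.36 (2.25) over all SCF-open peaks. With such bounds, medians of the other, shorter lists below were higher for lymphoid (2.85), neutrophil (2.94) and dendritic cell genes (2.94). They were lower for mast cell and basophil (2.58), cytokine receptor (2.37), SCF and KIT signalling (2.25), erythroid and megakaryocyte (2.20) and monocyte genes (1.32). A difference of this size was therefore not particular to stem cell genes.

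The promoter of Sox4, a transcription factor of primitive progenitors, held 23.5, 61.7 and 78.0 CPM in SCF Tet2 KO lines, against 1, 1, 1 and 0 counts in GM-CSF Tet2 KO lines. It held 18.7, 49.7 and 83.0 CPM in SCF controls, against 0, 1, 2 and 1 counts in GM-CSF controls. No GM-CSF line had more than 2 counts. In the shallow Tet2 KO lines of clones 19 and 20, 1 count still amounts to 24.5 and 25.4 CPM, just above the lowest SCF Tet2 KO line. The difference in Tet2 KO lines was 3.99 ± 0.50 (adjusted p = 1.82e-11). A further peak 114 kb from the Sox4 TSS was 3.11 ± 0.67 higher (adjusted p = 0.000194).

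The peak 76.8 kb upstream of Gata2, the GATA factor of stem and progenitor cells, held 39.7, 68.1 and 214 CPM in SCF Tet2 KO lines, against 0, 0, 3 and 0 counts in GM-CSF Tet2 KO lines. It held 22, 57.9 and 117 CPM in SCF controls, against 3, 0, 3 and 2 counts in GM-CSF controls. The 3 counts of control clone 19 equal 26.1 CPM, within the SCF range. Its TSS neighbour is Rpn1, a subunit of oligosaccharyltransferase, so it is not among the 33 peaks. The difference in Tet2 KO lines was 4.36 ± 0.51 (adjusted p = 7.56e-13). Nearer to Gata2, a peak 4.07 kb upstream was 3.61 ± 0.82 higher (adjusted p = 0.000415), and the promoter peak differed by 1.54 ± 0.56 (adjusted p = 0.0427) and did not pass.

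Kit, the receptor of SCF, had 3 open peaks and all were SCF-open. The peak at its TSS held 0, 36.3 and 63.7 CPM in SCF Tet2 KO lines, against 3, 1, 3 and 0 counts in GM-CSF Tet2 KO lines. In controls it held 13, 31 and 51.2 CPM in SCF, against 3, 2, 4 and 1 counts in GM-CSF. The groups overlapped in the shallow GM-CSF clones. The 3 counts of clone 19 equal 73.4 CPM in its Tet2 KO line, above every SCF Tet2 KO line, and 26.1 CPM in its control line. Clone 20, with 25.4 and 22.7 CPM, lay within the SCF range in both genotypes. One SCF Tet2 KO line had no count here, and the difference in Tet2 KO lines was 2.12 ± 0.46 (adjusted p = 0.000173). The peak 0.86 kb downstream differed by 3.94 ± 0.77 (adjusted p = 3.06e-05) and that 156 kb downstream by 2.37 ± 0.38 (adjusted p = 2.82e-07).

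Cd34, a surface protein of stem and progenitor cells, had 3 SCF-open peaks. The peak 10.7 kb upstream, which holds a GATA motif, held 4.7, 22.4 and 46.7 CPM in SCF Tet2 KO lines and no count in GM-CSF Tet2 KO lines, at least 7.64-fold higher. It held 0, 20.7 and 31.6 CPM in SCF controls, against 0, 1, 1 and 3 counts in GM-CSF controls. The Cd34 promoter was 3.36 ± 0.64 higher in SCF Tet2 KO lines (adjusted p = 1.78e-05) and the peak 4.85 kb into the gene 2.65 ± 0.60 higher (adjusted p = 0.000456).

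Other stem cell genes gave values of the same order. An intron of Etv6, an ETS family repressor, was 4.10 ± 0.58 higher (adjusted p = 3.61e-09), the promoter of Hlf, a PAR bZIP factor of stem cells, 3.79 ± 0.61 (adjusted p = 1.78e-07), and an intron of Erg, an ETS factor needed by stem cells, 3.38 ± 0.54 (adjusted p = 1.48e-07). An intron of Flt3, the receptor of multipotent progenitors, was 3.22 ± 0.66 higher (adjusted p = 7.87e-05). The promoter of Gfi1b, a repressor of erythroid and megakaryocytic cells, was 2.51 ± 0.60 higher (adjusted p = 0.000911). The 8 that did not pass were near Angpt1, Gata2, Ikzf2, Meis1, Runx1 and Tal1, with values from 1.07 to 2.77, all of them positive. The only peak of Tal1 on the list was among them (1.50 ± 0.71, adjusted p = 0.134).

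**Figure D4:**
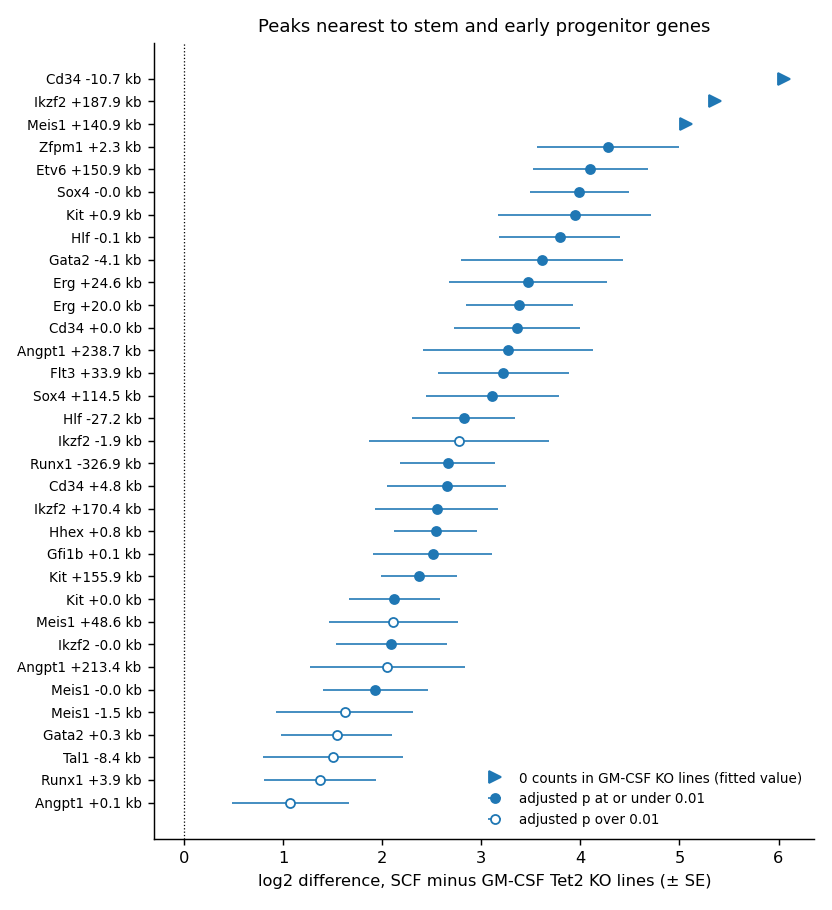
Log2 difference, SCF minus GM-CSF, in Tet2 KO lines for the 33 SCF-open peaks nearest to stem and early progenitor genes, with the distance from the TSS. Points are fitted values with standard errors, filled at an adjusted p of 0.01 or less, and triangles are 3 peaks with 0 counts in GM-CSF Tet2 KO lines, whose fitted value is no bound; all 33 values are above 0.

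The counts for the other lists are read against the same backgrounds. These are 8.36% of all open peaks for the share that was SCF-open and 57.2% of SCF-open peaks for the share that passed in Tet2 KO lines. The first mixes promoter and other peaks, as said above, and lists differ in how many of their peaks are promoters. Of 24 open peaks nearest to 20 neutrophil and primary granule genes, 2 (8.33%) were SCF-open, at Mpo and Gfi1. The Mpo promoter peak at its TSS held 9.65, 31.3 and 55.5 CPM in SCF Tet2 KO lines, against 1, 0, 0 and 1 counts in GM-CSF Tet2 KO lines, and was 3.58 ± 0.62 higher (adjusted p = 1.89e-06). Of 33 open peaks near 18 monocyte and macrophage genes, 8 (24.2%) were SCF-open, 4 of them near Maf, a macrophage bZIP factor. In Tet2 KO lines 1 of the 8 passed (200 kb downstream of Maf, 1.72 ± 0.41, adjusted p = 0.000915), and their median was 1.32. The promoter of Irf8, the factor of monocyte and dendritic cell fate, was among those that did not pass (1.21 ± 0.46, adjusted p = 0.0535).

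Near mast cell and basophil genes, 4 of 7 open peaks (57.1%) were SCF-open. The peak 2.01 kb upstream of Cpa3, the mast cell carboxypeptidase, and that 8.42 kb from Mcpt8, a basophil protease, had 21.7 and 15.2 CPM in the SCF Tet2 KO pool and no count in the GM-CSF Tet2 KO lines, at least 7.13-fold and 5.01-fold higher. The other 2 were the Gata2 peaks above. Of 3 mast cell markers, Ms4a2 has no promoter peak, Fcer1a stayed at or below 1.1 CPM in every pool, and the 2 that have one summed to 0 to 23.5 CPM in SCF Tet2 KO lines, 0 to 2.13 in GM-CSF Tet2 KO lines, 0 to 20.4 in SCF controls and 0 to 1.3 in GM-CSF controls, and their part in the result was not tested. Of 16 open peaks near lymphoid genes 5 (31.2%) were SCF-open and 3 passed. A peak 28.6 kb upstream of Ikzf1, the lymphoid factor Ikaros, was 3.42 ± 0.54 higher (adjusted p = 1.05e-07), and 2 peaks near Dntt, the terminal transferase of lymphoid progenitors, were 2.85 ± 0.68 and 3.02 ± 0.68 higher (adjusted p = 0.00082 and 0.000339). Of 17 open peaks near erythroid and megakaryocyte genes 4 (23.5%) were SCF-open, and 3 passed, those near Gp9 and Itga2b among them, whereas the promoter of Epor, the erythropoietin receptor, did not (0.41 ± 0.59, adjusted p = 0.696).

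Among 68 open peaks near genes of SCF and KIT signalling, 10 (14.7%) were SCF-open and 7 passed in Tet2 KO lines. Beside Kit these included an intron of Sh2b3, the adaptor LNK that dampens KIT signalling, which held 9.39, 53.1 and 103 CPM in SCF Tet2 KO lines, against 0, 2, 0 and 2 counts in GM-CSF Tet2 KO lines. It was 3.44 ± 0.50 higher (adjusted p = 6.9e-09). Of 4 peaks around Spry1, an inhibitor of receptor tyrosine kinase signalling, those 19.8 kb and 26.8 kb downstream passed (3.80 ± 0.81 and 3.71 ± 0.81, adjusted p = 0.000151 and 0.000206). Of 23 open peaks near progenitor cytokine receptor genes 7 (30.4%) were SCF-open and 5 passed, near Kit, Flt3 and Il6ra, the interleukin 6 receptor (40.7 kb downstream, 3.42 ± 0.83, adjusted p = 0.00106). Near dendritic cell genes 2 of 9 (22.2%) were SCF-open, and the Flt3 peak passed while that of Ccr7 did not. Neither the HoxA and HoxB clusters, with 3 open peaks, nor 15 housekeeping genes, with 31, had an SCF-open peak.

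The 1372 peaks were nearest to 1091 genes, of which 892 had 1 peak, 145 had 2 and 54 had at least 3. Cxxc5, a CXXC zinc finger protein on chromosome 18, had the most, 9 of its 12 open peaks within 58.6 kb of its TSS. Summed over the 9, the pools held 225 CPM in SCF Tet2 KO lines, 17.2 in GM-CSF Tet2 KO lines, 211 in SCF controls and 21.8 in GM-CSF controls. In Tet2 KO lines 8 of the 9 passed, the strongest of them 58.6 kb downstream, with 39.2, 57.8 and 92.2 CPM in SCF Tet2 KO lines, against 0, 0, 1 and 0 counts in GM-CSF Tet2 KO lines (5.32 ± 0.61, adjusted p = 5.41e-13).

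Haao followed with 8 of 11 open peaks, all 55.4 to 157 kb upstream of its TSS, and 4 passed in Tet2 KO lines. Rnf220, a ubiquitin ligase, had 6 of 7, of which 4 passed. All 5 open peaks of Tcerg1l, all 4 of Cbfa2t3, all 4 of Rfx8, all 4 of Ikzf2 (Helios) and all 4 of Adam6a were SCF-open. Those of Adam6a lay at least 950 kb from its TSS, among the segments of the immunoglobulin heavy chain locus, which holds 4 SCF-open peaks. The first of them had no count in any GM-CSF library, and the summed values were 64.0 CPM in SCF Tet2 KO lines, 5.07 in GM-CSF Tet2 KO lines, 64.9 in SCF controls and 1.98 in GM-CSF controls. Trib2, a pseudokinase that promotes decay of C/EBPalpha, had 5 of 6, Gse1 4 of 15, and Maf and Spry1 4 of 6 each.

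Loss of Tet2 changed few SCF-open peaks. In the 24 SCF clones, Tet2 KO was compared with control within clones (clone as block). The peaks were chosen for high counts in these SCF controls, which by itself favours lower values in Tet2 KO lines. Of 1372 SCF-open peaks, 5 (0.364%) were more accessible in Tet2 KO lines, against 0.960% of 29280 tested peaks. Outside promoters these were 3 of 1157 (0.259%), against 0.427% of the other open peaks there. The part of place in these shares was not tested. Only 1 SCF-open peak (0.0729%) was less accessible, against 0.0512% of all tested peaks. The median log2 difference (Tet2 KO minus control) was 0.02, against -0.04 over all tested peaks. None of the 33 peaks of stem and early progenitor genes passed, where 0.437% of all SCF-open peaks did. At so low a rate a list of 33 cannot show a difference. At an unadjusted p under 0.05 there were 3, against 167 of all 1372 SCF-open peaks. The Sox4 promoter differed by 0.22 (adjusted p = 0.306). For reference, on simulated counts with the same spread at every peak, the test recovered 64.4% of peaks changed by 1 on the log2 scale. It recovered 4.92% of those changed by 0.5.

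The promoter of Trib2 had the lowest p. It held 55.3, 77.4 and 106 CPM in Tet2 KO lines and 25.1, 52.7 and 78.6 CPM in SCF controls, and was higher in the Tet2 KO line of 23 of 24 clones (0.53 ± 0.09, adjusted p = 1.14e-05). The values of the groups overlapped, and the difference lay within nearly every pair. In GM-CSF clones 19 to 22 it had 3, 1, 3 and 1 counts in Tet2 KO lines and 3, 0, 6 and 3 counts in controls. The counts of clone 19 equal 73.4 CPM in its Tet2 KO line and 26.1 CPM in its control line, within the SCF range in both genotypes. The Pbx4 promoter was higher in 20 of 24 clones (0.41 ± 0.08, adjusted p = 0.000279), with the values given above.

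The 4 other changed peaks had larger adjusted p than these. A peak 599 kb upstream of Negr1, a neural adhesion molecule, was 0.64 ± 0.15 higher (adjusted p = 0.00201, 19 of 24 clones higher). The Gata2 peak 76.8 kb upstream was 0.37 ± 0.09 higher (adjusted p = 0.00505, 19 of 24), and a peak 134 kb upstream of Gata6 was 0.69 ± 0.18 higher (adjusted p = 0.00906, 15 higher and 8 lower). An intron of Fam222a was lower by -1.27 ± 0.27 on the log2 scale (adjusted p = 0.000832, lower in 20 of 24), with 0, 3.19 and 11.5 CPM in Tet2 KO lines and 0, 10.1 and 27.1 CPM in SCF controls. This peak held 10.2 CPM in the SCF control pool, just above the 10 CPM that the rule asks for, and 4.34 CPM in the SCF Tet2 KO pool. The choice of peaks on the control lines favours such a drop, so its p-value is not independent of the rule. With the share of promoter counts as a covariate, which ranged from 31.2% to 50.4% in SCF Tet2 KO lines and 33.2% to 49.4% in SCF controls, only the Trib2, Negr1 and Fam222a peaks stayed at 0.01 or less, and without the clone block the Gata2 and Gata6 peaks did not. The next peaks lower in Tet2 KO lines, in introns of Pecam1, Galnt14 (nearest to Capn13) and Snx30, had differences of -0.75, -0.79 and -0.64 and adjusted p of 0.0269, 0.0429 and 0.0457. The rule favours lower values at these peaks too.

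The summed share of counts in SCF-open peaks was also alike between sister lines. It was higher in the Tet2 KO line of 13 of 24 clones, with a median difference of 0.0463 percentage points (-0.491 to 0.879). Across the 24 SCF clones the share in the Tet2 KO line went with that in the control line (Pearson r = 0.73, Spearman rho = 0.73, r = 0.72 without clones 14 and 27, and r = 0.77 in the 17 clones numbered 1 to 18 and 0.65 in the 7 numbered 23 to 29). The share also went with the share of counts in promoter peaks (r = 0.70 in Tet2 KO lines, or 0.50 without clones 3 and 9, and 0.67 in control lines), and the part of signal quality in the differences between clones was not tested. In GM-CSF clones, the shares above were higher in the Tet2 KO line of clones 19, 20, 21 and 22, where the control libraries had been used to choose low peaks. With the clone left out of the rule, they were higher in the Tet2 KO lines of clones 19 and 20 and lower in those of clones 21 and 22.

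SCF clones differed among themselves at a larger share of SCF-open peaks than of other peaks. The 2 sister lines of a clone stood as its replicates, and the rule had used only the pooled sum of the control lines, in which deep clones weigh more. Of 1372 SCF-open peaks, 154 (11.2%) differed among the 24 clones, against 1.86% of the 29280 tested peaks and 1.4% of the other open peaks. Outside promoters these shares were 11.7% and 2.51%. The 154 peaks were spread over 19 autosomes, with 13 on chromosome 5 and 2 on chromosome 19. The SD of log2 CPM over clones had a median of 0.633 in the 154 peaks and of 0.486 in all SCF-open peaks.

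The promoter of Tdrkh, a Tudor domain protein of the piRNA pathway, varied most. It held 0, 35.9 and 80.4 CPM in SCF Tet2 KO lines and 0, 27.3 and 106 CPM in SCF controls (adjusted p = 1.58e-56). Clone 8 held 79.2 CPM in its Tet2 KO line and 106 in its control line, clone 12 held 80.4 and 56.5, and clone 2 held 72.9 and 50.4. Clone 16 had no count in either line and clone 26 had 0 and 2.89 CPM. The promoter was therefore open in some clones and closed in others, in both sister lines alike.

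Other peaks were also unequal among clones. A peak 85.4 kb downstream of Cd47, the signal that protects cells from phagocytosis, held 40.7 CPM in the Tet2 KO line and 56.5 CPM in the control line of clone 8, 37.8 and 28.8 CPM in clone 18, and no count in either line of clones 1, 2, 3, 10 and 29 (adjusted p = 1.17e-39). The Pcbp3 promoter, of an RNA binding protein, held 70.7 and 55.4 CPM in clone 2, 59.1 and 58.6 CPM in clone 4 and 64.2 and 67.1 CPM in clone 8 (adjusted p = 2.67e-39). A peak 17.2 kb upstream of Arfgap3 held 53.6 and 65.5 CPM in clone 2 and 51.7 and 68.4 CPM in clone 4, with none in either line of clone 15 (adjusted p = 4.37e-36). Clone 8 held 40.7 and 49.4 CPM at the Arfgap3 peak, so clones 2, 4 and 8 were high at both this peak and the Pcbp3 promoter. Clone 23 held 65.1 and 38.3 CPM at the Pcbp3 promoter but 0 and 2.13 CPM at the Arfgap3 peak.

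At some other peaks other clones were highest. The peak 134 kb upstream of Gata6 was highest in clones 25 and 28, with 73.2 and 61.2 CPM in their Tet2 KO lines and 27.4 and 29.9 CPM in their control lines (adjusted p = 9.12e-18). The peak 4.29 kb upstream of Pik3r6, a regulatory subunit of PI3 kinase gamma, was also highest in clone 28, with 57.8 CPM in the Tet2 KO line and 43.0 CPM in the control line (adjusted p = 1.02e-18). Peaks 23.6 kb upstream of Jun and 27.0 kb upstream of Sftpb completed the 8 with the largest spread (adjusted p = 3.9e-16 and 2.98e-11). At the Sftpb peak clone 4 was the highest Tet2 KO line, with 66.5 CPM, against 19.5 CPM in its control line. Over the 154 peaks, the highest clone was clone 24 for 24 peaks, clones 4 and 18 for 21 each, clone 28 for 20 and clone 25 for 18. The lowest was clone 3 for 42 and clone 27 for 25, which had the smallest shares of counts in SCF-open peaks in Tet2 KO and control lines, 1.39% and 1.52%. These 2 libraries were shallow (130049 and 115105 counts), as were both of clone 4 (135290 in Tet2 KO, 102302 in control). The Tet2 KO line of clone 24 (1079233) and the control line of clone 18 (1042973) were the deepest. The part of depth in these tallies was not tested. Without clones 3, 4, 13 and 27, 142 SCF-open peaks differed.

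None of the 33 peaks of stem and early progenitor genes passed among clones, against 11.2% of all SCF-open peaks (lowest adjusted p = 0.025 at the Hlf promoter). At an unadjusted p under 0.05 there were 11 of the 33, against 598 of all 1372 SCF-open peaks. The Gata2 peak 76.8 kb upstream, outside that list, differed among clones (adjusted p = 5.07e-10), as did the Sh2b3 intron (adjusted p = 1.8e-06) and a peak 33.4 kb upstream of Gfi1 (adjusted p = 4.51e-05). The Sox4 promoter, the 3 Kit peaks and the Cd34 promoter did not pass, with adjusted p of 0.661 at Sox4, 0.432 to 0.795 at Kit and 0.487 at Cd34. In the 17 clones numbered 1 to 18 alone 50 SCF-open peaks differed, and in the 7 numbered 23 to 29 alone 15, and what distinguishes the sets was not tested.

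**Figure D5:**
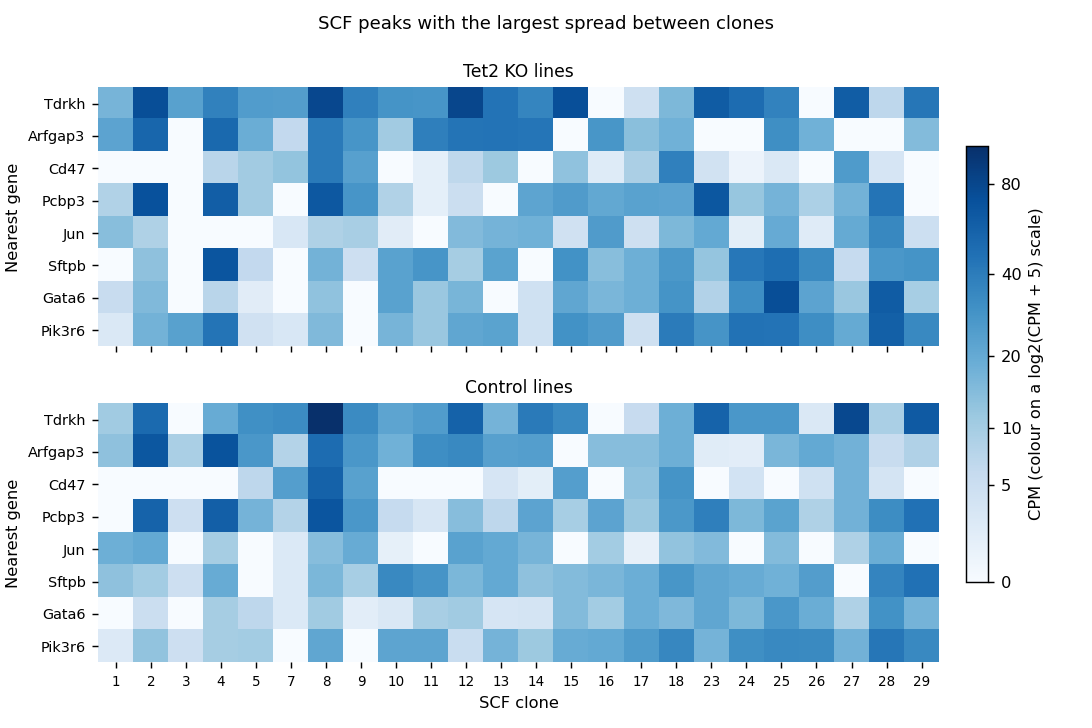
CPM in the 24 SCF clones at the 8 SCF-open peaks with the largest spread among clones, named by nearest gene, in Tet2 KO lines (top) and control lines (bottom). Darker blue is higher, on a log2(CPM + 5) colour scale; Tdrkh reaches 106 CPM in the control line of clone 8 and 0 in both lines of clone 16.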

How the data were processed

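Counts per peak and library were deposited by the authors as raw whole numbers, with no normalization, over 297361 peaks of 301 bp that the authors had set from single-cell ATAC-seq summits and ImmGen peaks. Processing notes of the submitters name Bowtie2, SAMtools, Picard and the build mm10. Tool versions and the counting unit (fragments or insertions) were not given in the sources used here.

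Peaks were placed with GENCODE vM21. Tests used the quasi-likelihood method of edgeR 4.0.16 (R 4.3.3) with TMM on peaks with a mean count of at least 2, Benjamini-Hochberg adjustment over all peaks and 0.01, the limit of the study. Sister lines come from 1 clone, so the clone was a block in the Tet2 comparison (correlation of sister deviations 0.023 to 0.189 over 29300 peaks, best with its own sister in 16 of 24 clones). CPM scales a library or pool to 1000000 counts. Alternatives were DESeq2 (1.42.0), other scaling, filters, weights, limits and left-out clones. On simulated data the cytokine test recovered 8.33%, 79.3% and 100% of peaks changed by 1, 2 and 3 on the log2 scale. The test among clones recovered 86.4% of peaks with an SD of 1. The simulation gave every peak the same spread beyond counting error. These shares therefore need not hold for real peaks, above all those with few GM-CSF counts. Intervals cover counting error only.

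The members and lists were chosen with earlier results of these data known. Peaks named were the 12 highest, the 6 highest with no GM-CSF control count, the 3 on either side of the fold limit, the 4 lowest p in each Tet2 direction, the 8 largest spreads among clones, the 4 highest in GM-CSF Tet2 KO lines, the 12 genes with the most members and listed genes. Others (the Gata2 peak as its nearest TSS is Rpn1, and the Trac and immunoglobulin positions) were picked after values were seen. A few named items are not reported here. Figures were drawn with matplotlib 3.10.9 in Python 3.11.15.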

Additional observations from a re-analysis of the deposited data

How the results depend on the processing

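Settings for the libraries left out together, the clones 19 and 20 summed and the older quasi-likelihood method of edgeR were chosen after seeing the data. The rule gave 611 peaks with an 8-fold limit, 3004 with a minimum of 5 CPM and 438 with 20 CPM, and 1376 to 1494 without 1 GM-CSF clone. With equal library weights it gave 1248 peaks, of which 938 were shared.

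In Tet2 KO lines, the count of peaks higher in SCF was 392 of 479 tested with the filterByExpr filter and 276 with DESeq2, and 213 to 725 without 1 GM-CSF line (213 without clone 21, 246 without clone 22). It stayed within 1.5 times of 784 under the other settings, without clones 19 and 20 (685) among them, and no setting called a peak lower in SCF. The median share in SCF Tet2 KO lines was 4.28 times that in GM-CSF Tet2 KO lines, 3.36 to 5.87 times without 1 GM-CSF line and 5.88 times without clones 19 and 20.

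Against 5 peaks higher in Tet2 KO, the count was 2 with DESeq2 size factors, 2 with filterByExpr, 3 with a mean count of 1, 3 with no replicate block, 3 in SCF clones 1 to 18 alone, 0 in clones 23 to 29 alone (100 in either direction at an unadjusted p under 0.05), 2 with the promoter share as a covariate and 1 with DESeq2. With DESeq2 size factors the median Tet2 difference was -0.05 over SCF-open peaks and -0.11 over all tested peaks. The 1 peak lower in Tet2 KO was lost (0) with filterByExpr, in clones 1 to 18 alone, in clones 23 to 29 alone and with DESeq2, and Fam222a was not tested under filterByExpr. The clone block was the pairing used above. The number of peaks that differed among clones was 45 of 274 tested with filterByExpr, 50 in clones 1 to 18 and 15 in clones 23 to 29. The causes were not tested, apart from fewer peaks or samples in those fits.

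Low GM-CSF counts limit these results: a member has a median of 3 GM-CSF control counts, so a single fold is imprecise, and 4 GM-CSF clones carry both genotypes.  Accessibility is not transcription, and the nearest gene need not be the gene a peak acts on.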
